A study of Mus musculus with 7 samples.

Results

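The genes described here encode 49 enzymes of amino acid breakdown and of the methionine cycle in mouse liver. They were listed by symbol, and all 49 were present among the 14889 genes of the count table, 1 of them (Mut) under its newer symbol Mmut. The livers came from ApoE-/- mice of strain C57BL/6, 4 months old, kept on Western diet for 3 months, and measured by sequencing of liver RNA. In 3 mice PX-478 (40 mg/kg) was given by intraperitoneal injection bi-weekly, and 4 mice received saline by the same route and schedule. PX-478 is a small molecule used to lower the hypoxia-inducible factor HIF-1α. Every mouse of both groups lacks apolipoprotein E and ate the high-fat diet, so the comparison has no group on normal chow and none with the intact gene. The labels do not say how the animals were housed or processed, and the p-values therefore measure only the spread between these 7 samples, which may in part be technical.

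Liver is the main site of breakdown of most amino acids. Enzymes of the hepatocyte cytosol and mitochondria remove the amino group of most of them. They turn the carbon skeletons into glucose precursors, ketone bodies or acetyl-CoA, along routes that share some steps. The methionine cycle makes S-adenosylmethionine, the methyl donor of the cell, and regenerates methionine from homocysteine with a methyl group taken from folate or from betaine, a product of choline. Homocysteine that is not remethylated enters transsulfuration, which leads to cysteine and taurine.

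Counted reads per library lay between 10285776 and 17257304, and 13693 genes passed the count filter, the 49 members among them. The share of reads from mitochondrially encoded genes was 22.37% in PX-478 library 2 and 27.12% to 36.72% in the other 6. All 10 hepatocyte markers were detected in every library, and Alb, the albumin gene, stood at 16736 to 22558 CPM in PX-478 livers and at 19239 to 25849 CPM in saline livers, where CPM is the read count relative to library size after scaling by the trimmed mean of M-values (TMM). Of those 10 markers 9 stood lower in PX-478, with a median log2 ratio of PX-478 to saline (the log2 ratio from here on) of -0.37 and summed levels of 36415 to 45139.6 CPM in PX-478 and 41001 to 58155 CPM in saline livers. Markers of Kupffer cells and macrophages had a log2 ratio below 0 in 9 of 9, and their levels summed to 272 to 389 CPM in PX-478 and 282 to 589.8 CPM in saline. Taken singly, 3 of these 9 were lower in PX-478 without overlap (Lyz2 -1.12, Cd68 -0.91 and Vsig4 -0.94), and 6 overlapped. Their adjusted p were 0.179, 0.264 and 0.481 in edgeR, and 4.29% of all genes were lower without overlap. Log2 ratios were above 0 for 6 of 7 endothelial, 5 of 7 stellate cell and fibroblast and 2 of 5 cholangiocyte markers, and for 0 of 4 tested lymphocyte and neutrophil markers. In these bulk samples fewer cells of a type and less RNA per cell cannot be told apart, and the part of cell composition in the results below was not tested.

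None of the 49 genes passed an adjusted p of 0.05 in edgeR's quasi-likelihood test, in which 1 of all 13693 genes, Cfd, did so (0.0073%). At an unadjusted p under 0.05, 8 of the 49 (16.3%) stood apart, against 6.97% of all genes tested. In 6 of the 8 the PX-478 level was the higher one (Prodh2, Ivd, Bckdhb, Mccc2, Etnppl and Csad; background 3.48%), and in 2 it was the lower one (Bhmt and Pcca; background 3.48%). The number of members under that p depended on single libraries. It was 3 (6.12%) without PX-478 library 3, where 7.31% of all genes were under that p, and 13 (26.5%) without PX-478 library 2, where 8.5% of all genes were. Without saline library 2 or saline library 4 it was 5 (10.2%), against 7.18% and 6.65% of all genes. The library values of the groups did not overlap for 7 members (14.3%), against 8.59% of all genes. Of these 7, 4 were higher in PX-478 (Prodh2, Ivd, Bckdhb and Mccc2; background 4.3%) and 3 lower (Bhmt, Pcca and Mmut; background 4.29%). Over the 49 the median log2 ratio was 0.04, against 0.00 over all genes, with 27 members above 0 and 22 below. Differences were small in most: 39 members had a log2 ratio under 0.5 in size, only Bhmt reached 1 (5.24% of all genes did), and the 95% interval lay within a 2-fold difference in either direction for 35 of the 49.

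**Figure D1:**
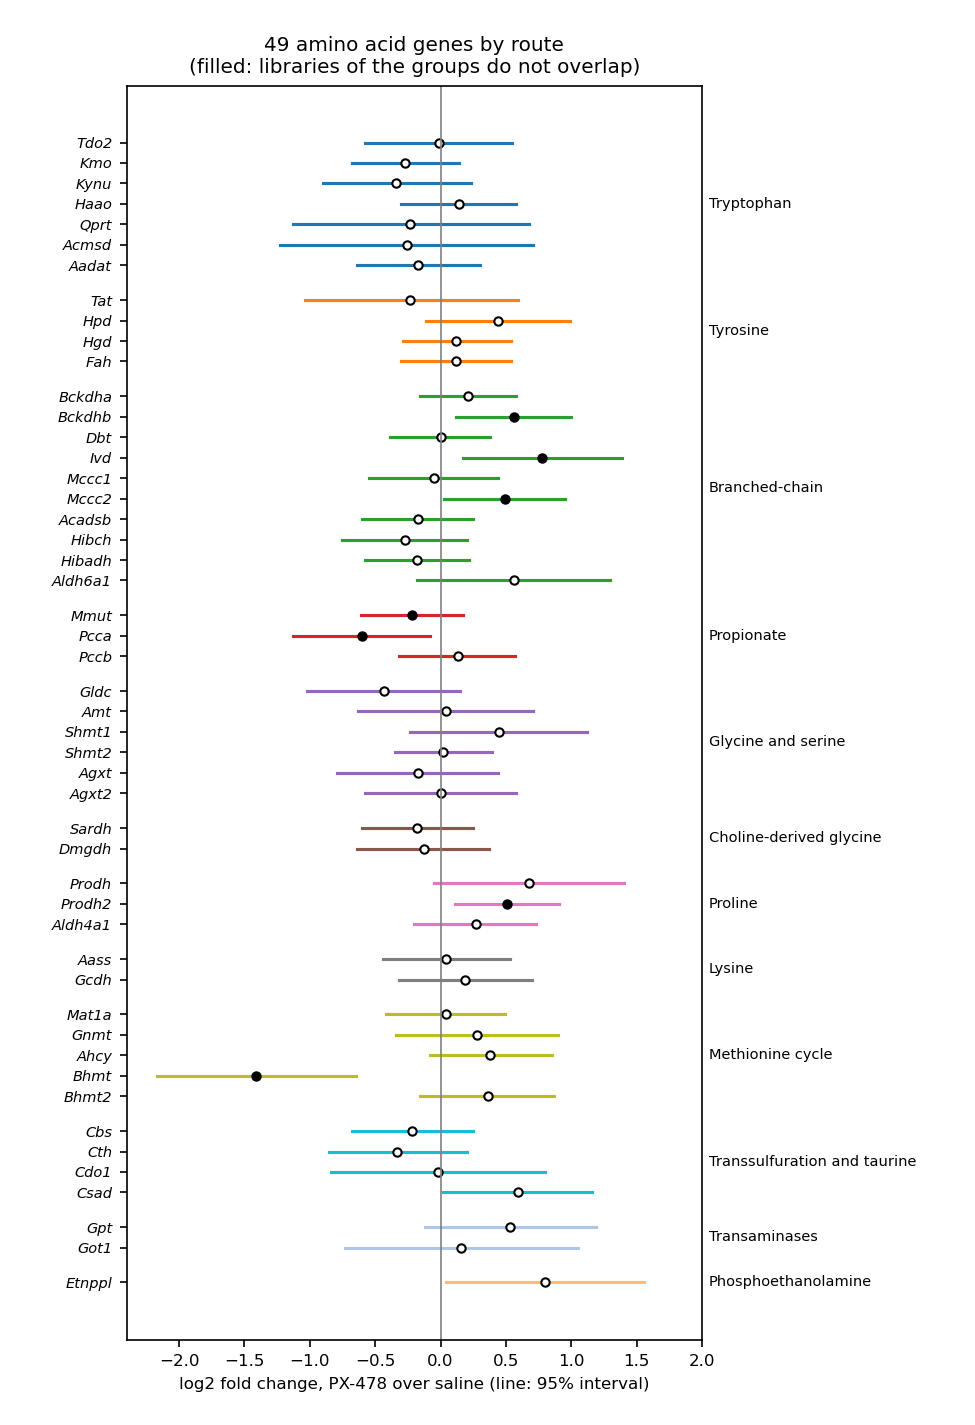
Log2 ratio of PX-478 to saline (horizontal axis, points) with its 95% interval (lines) for the 49 genes, grouped by route down the page. Filled points mark the 7 genes whose library values do not overlap between 3 PX-478 and 4 saline livers. Bhmt lies at -1.41, and the intervals of most other genes cross 0.

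The largest difference concerned Bhmt, betaine-homocysteine methyltransferase, the liver enzyme that uses betaine to turn homocysteine back into methionine. Bhmt (Entrez Gene 12116) lies on the minus strand of chr13:93616891-93637758 in mm10. It had 390.3, 363 and 916 CPM in the PX-478 livers, against 2085, 1492, 1086 and 1265 CPM in the saline livers. All 3 PX-478 libraries were below all 4 saline libraries, and PX-478 library 3 lay closest to them. The means were 556 ± 312 CPM in PX-478 (SD, n = 3) and 1482 ± 435 CPM in saline (SD, n = 4), so the PX-478 level was 0.375 of the saline level. This gave a log2 ratio of -1.41 (SE 0.35, 95% interval -2.17 to -0.65), with an unadjusted p of 0.0016, the 66th smallest of all genes, and an adjusted p of 0.328 in edgeR's quasi-likelihood test. With DESeq2 the adjusted p of Bhmt was 0.00736 at the same fold change, and that tool called 0.606% of all genes and 0.27% as lower. Leaving out 1 library at a time gave log2 ratios from -1.18 without PX-478 library 2 to -1.98 without PX-478 library 3, with an adjusted p of 0.0566 in the last case and of 0.342 or more in the others. Per kilobase of annotated exon, Bhmt was the 12th most abundant of the 49 in PX-478 livers (96.6 CPM per kb) and the 5th in saline livers (257 CPM per kb).

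Bhmt2 encodes a close relative that methylates homocysteine with S-methylmethionine instead of betaine, and its gene lies 18338 bp from Bhmt, on the same strand at chr13:93656097-93674302. It had 169, 113 and 189.8 CPM in the PX-478 livers, against 153, 111, 87.8 and 140.3 CPM in the saline livers. The groups overlapped, and the log2 ratio was 0.36 (SE 0.24, adjusted p = 0.796 in edgeR), opposite in sign to that of Bhmt, and 0.20 without PX-478 library 3 or 0.22 without saline library 3. The ratio of Bhmt to Bhmt2 within a library was 2.3, 3.2 and 4.83 in PX-478, against 13.6, 13.4, 12.4 and 9.02 in saline. This ratio was taken after the values of both genes had been seen; it did not overlap between the groups, and the difference between the genes was not tested. The proteins and their messages are similar in sequence, so reads could in part be shared between them. With the counts of both genes added, the log2 ratio was -1.17 (unadjusted p = 0.00298, adjusted p = 0.434 in edgeR).

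Dmgdh, dimethylglycine dehydrogenase, which oxidises the dimethylglycine that the Bhmt reaction releases, starts back to back with Bhmt2 on the opposite strand, at chr13:93674436-93752823. It had 110.2, 97.6 and 178 CPM in the PX-478 livers, against 171, 124, 119.6 and 148 CPM in the saline livers. Sardh, sarcosine dehydrogenase, the next enzyme on the way to glycine, had 376, 328 and 472 CPM in the PX-478 livers, against 502, 418, 401 and 451 CPM in the saline livers. Both overlapped between the groups, with PX-478 library 3 the highest of its group for each. Their log2 ratios were -0.13 (SE 0.23) for Dmgdh and -0.18 (SE 0.20) for Sardh. Of the 3 neighbours on chromosome 13, then, Bhmt alone had an unadjusted p under 0.05.

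The sequences in front of these neighbours are shown because Bhmt and Bhmt2 adjoin and had log2 ratios of opposite sign. RefSeq's GRCm38.p6 table gives the 250 bases before and 50 bases after each start. The motif AGGTCA, the half-site bound by many nuclear receptors, occurs at 3 places before the RefSeq start of Bhmt. It was searched after the Bhmt window had been read. Each match is printed with 12 bases on either side, 5′ to 3′ on the minus strand, with AGGTCA in capitals. Negative positions count back from the RefSeq start, and GENCODE M21 places the start of Bhmt 203 bases further upstream. By the GENCODE start only the match at -234 lies before Bhmt, and those at -72 and -47 lie within the gene.
Bhmt at -234 (chr13:93637975-93638004): tgtgccagatgtAGGTCAtgcagtttacac
Bhmt at -72 (chr13:93637813-93637842): gaccccagatcaAGGTCAgaggcctgctat
Bhmt at -47 (chr13:93637788-93637817): gctattggacaaAGGTCAgtgtgcagacga
In GENCODE M21, 130 bases separate the starts of Bhmt2 and Dmgdh (133 by the RefSeq positions above). These 130 hold no AGGTCA on either strand and are 70.8% G or C. They do hold GGGTCA, which differs from AGGTCA only at its start and was not searched in any window. The lack of AGGTCA here therefore depends on the spelling chosen. They follow 5′ to 3′ on the strand of Bhmt2.
Between Bhmt2 and Dmgdh (chr13:93674303-93674432): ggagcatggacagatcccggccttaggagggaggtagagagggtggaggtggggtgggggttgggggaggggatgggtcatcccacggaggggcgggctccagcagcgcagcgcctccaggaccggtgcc
These letters describe the windows and do not show that a factor binds there.

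Of the 49 genes 42 had a promoter in that table, in 48 windows of 300 bases, some genes having more than 1 start. AGGTCA was found on either strand in 20 of the 48 (41.7%), against 16.3% of all 32851 mouse windows. These 20 include Bhmt, whose window was read before AGGTCA was chosen, so this share is no independent result. The HIF core ACGTG was present in 5 (10.4%), belonging to Cbs, Csad, Haao, Mccc2 and Tat, against 19.6% of all windows. The palindrome of the glucocorticoid receptor occurred in 1 (Gnmt, 2.08%; 0.475% of all windows). TTANGTAA, the motif of the PAR bZIP factors, occurred in none, against 2.32% of all. Among the 13425 windows of genes tested here the shares were 13.3% for AGGTCA, 24.7% for ACGTG, 0.313% for the palindrome and 1.59% for TTANGTAA. No overlap between the motifs was required or removed, and both strands were searched for each.

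The other members of the methionine cycle had log2 ratios above 0. Ahcy, S-adenosylhomocysteine hydrolase, which releases homocysteine, had 834, 627 and 804 CPM in the PX-478 livers, against 506, 476, 604 and 729.8 CPM in the saline livers. Its groups overlapped through PX-478 library 2 and saline library 4, and its log2 ratio was 0.38 (SE 0.21, adjusted p = 0.766 in edgeR). Mat1a, the methionine adenosyltransferase of adult liver, averaged 1357 ± 137 CPM in PX-478 (SD, n = 3) and 1322 ± 242 CPM in saline (SD, n = 4), with a log2 ratio of 0.04 (95% interval -0.42 to 0.49). Gnmt, glycine N-methyltransferase, which uses up excess S-adenosylmethionine, had a log2 ratio of 0.28 (SE 0.29), with saline library 1 at 249 CPM above every PX-478 library.

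Csad, cysteine sulfinate decarboxylase, which commits cysteine to taurine, was the member of transsulfuration and taurine synthesis with the smallest p. It had 80.5, 136 and 77.9 CPM in the PX-478 livers, against 64.0, 58.6, 92.2 and 45.9 CPM in the saline livers. Saline library 3 lay above 2 of the PX-478 libraries. The log2 ratio was 0.59 (SE 0.26, unadjusted p = 0.0422, adjusted p = 0.695 in edgeR) and was 0.28 without PX-478 library 2. Cth, cystathionine gamma-lyase, which releases cysteine, had 82.6, 68.4 and 73.2 CPM in the PX-478 livers, against 144, 73.4, 78.4 and 79.6 CPM in the saline livers. Saline library 1 stood far above the rest, and the log2 ratio was -0.33 (SE 0.24). Cbs, cystathionine beta-synthase, which draws homocysteine into the route, had 198, 189.6 and 154 CPM in the PX-478 livers, against 281, 167, 201 and 191 CPM in the saline livers, with a log2 ratio of -0.22 (SE 0.21). Both overlapped between the groups. Cdo1, cysteine dioxygenase, the step before Csad, averaged 25.8 ± 14.8 CPM in PX-478 (SD, n = 3) and 26.2 ± 7.66 CPM in saline (SD, n = 4).

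The transcripts of Bhmt, of betaine-dependent remethylation, and Cbs, of transsulfuration, were compared as a ratio within each library. This ratio of transcripts leaves out the folate route and does not measure the flow through either route. It was 1.97, 1.91 and 5.94 in the PX-478 livers, against 7.41, 8.95, 5.4 and 6.62 in the saline livers. PX-478 libraries 1 and 2 lay below all saline libraries, whereas PX-478 library 3 lay above saline library 3. Over the 9 genes of both sulfur routes the median log2 ratio was 0.04, with 5 above 0 and 4 below.

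**Figure D2:**
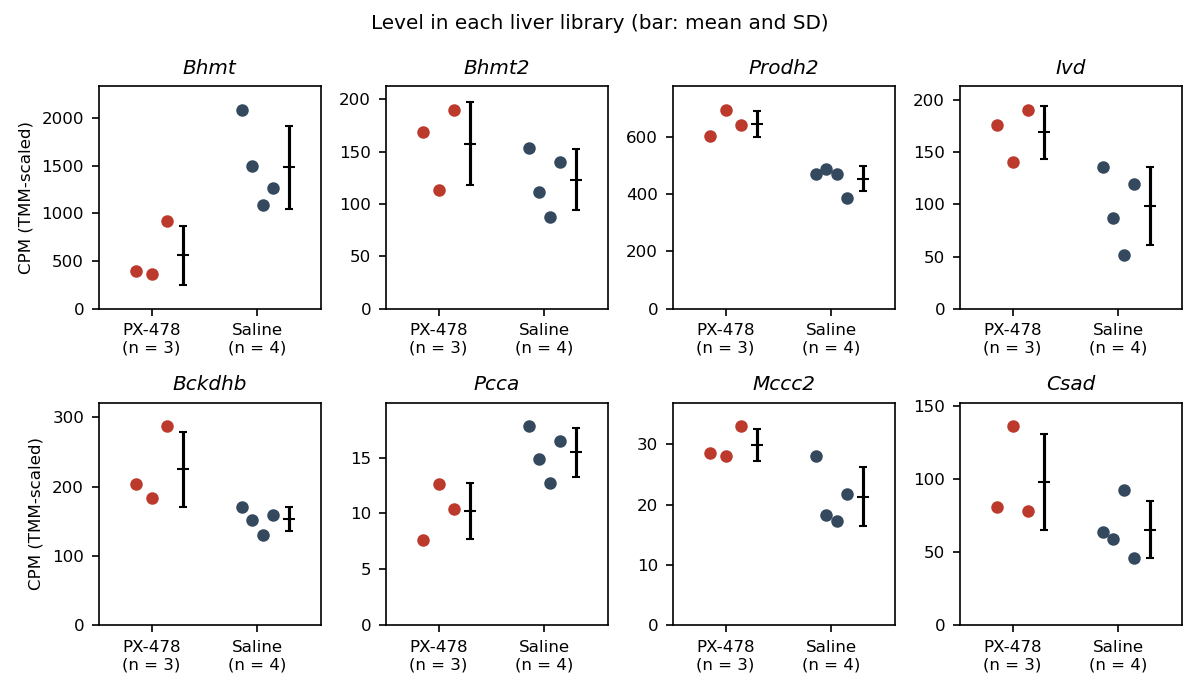
Levels in CPM (vertical axes from 0, TMM-scaled) of Bhmt, Bhmt2, Prodh2, Ivd, Bckdhb, Pcca, Mccc2 and Csad. Points show each of 3 PX-478 (left) and 4 saline livers (right), and bars the mean and SD. All but Bhmt2 (0.16) had an unadjusted p under 0.05 in edgeR, and Etnppl, also under 0.05, is not drawn. In the Bhmt panel all PX-478 points, 363 to 916 CPM, lie below the saline points, 1086 to 2085 CPM, while the Bhmt2 and Csad panels overlap.

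All 3 enzymes listed for the breakdown of proline and hydroxyproline had higher mean levels in PX-478 livers. Prodh2, which oxidises hydroxyproline from collagen, had 603, 693 and 639 CPM in the PX-478 livers, against 470.1, 488, 468 and 387 CPM in the saline livers. Every PX-478 library lay above every saline library, and the spread within each group was narrow. Its log2 ratio was 0.51 (SE 0.18, 95% interval 0.11 to 0.91), with an unadjusted p of 0.016 and an adjusted p of 0.602 in edgeR. Prodh, proline dehydrogenase, had 346, 366 and 664 CPM in the PX-478 livers, against 376, 266, 145 and 363 CPM in the saline livers. PX-478 library 3 was high and saline library 3 low, and the groups overlapped. The log2 ratio of Prodh was 0.68 (SE 0.33, adjusted p = 0.728 in edgeR), and 0.31 without PX-478 library 3. Aldh4a1, the dehydrogenase that serves both of them by turning their product into glutamate (hydroxyglutamate from hydroxyproline), had 208, 190.3 and 225 CPM in the PX-478 livers, against 212, 166, 120 and 194 CPM in the saline livers. Its groups overlapped, with a log2 ratio of 0.27 (SE 0.21), and 32.5% of its exonic bases are shared with the gene model Gm21969 on the same strand.

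Of the 10 branched-chain genes, 3 (Ivd, Bckdhb and Mccc2) stood higher in every PX-478 liver than in any saline liver. Of all genes tested 4.3% did so. Ivd, isovaleryl-CoA dehydrogenase, which takes the leucine skeleton through its first step after decarboxylation, had 176, 141 and 191 CPM in the PX-478 livers, against 136, 86.6, 51.6 and 119.5 CPM in the saline livers. The gap between the groups was narrow, 141 against 136 CPM, and the saline livers varied widely. Ivd had a log2 ratio of 0.78 (SE 0.28, 95% interval 0.17 to 1.39, unadjusted p = 0.0163, adjusted p = 0.602 in edgeR). Bckdhb, the E1 beta subunit of the branched-chain keto acid dehydrogenase, had 203, 184 and 287 CPM in the PX-478 livers, against 171, 152, 129.9 and 159 CPM in the saline livers. Its highest value belonged to PX-478 library 3, and its log2 ratio of 0.56 (SE 0.20, adjusted p = 0.602 in edgeR) was 0.34 without that library. Mccc2, the beta subunit of methylcrotonyl-CoA carboxylase, the leucine step after Ivd, had 28.6, 28.1 and 33.0 CPM in the PX-478 livers, against 28.1, 18.2, 17.3 and 21.7 CPM in the saline livers. The lowest PX-478 library and the highest saline library were at the same rounded level, and the log2 ratio was 0.49 (SE 0.21, adjusted p = 0.695 in edgeR).

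Partner subunits of the same complexes were closer to 0. Bckdha, the E1 alpha subunit, had a log2 ratio of 0.21 (SE 0.17), but 61.7% of its exonic bases lie opposite B3gnt8, and the sources used here do not state whether counting used strand. Dbt, the E2 subunit of the same dehydrogenase, averaged 83.7 ± 7.11 CPM in PX-478 (SD, n = 3) and 83.9 ± 10.4 CPM in saline (SD, n = 4). Mccc1, the alpha subunit paired with Mccc2, had a log2 ratio of -0.05 (95% interval -0.55 to 0.44). Whether subunits of a complex differ from each other was not tested.

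The valine and isoleucine branch held values of both signs. Aldh6a1, methylmalonate semialdehyde dehydrogenase, had a log2 ratio of 0.56 (SE 0.34), with PX-478 library 2 (19.5 CPM) among the saline values. Of the exonic bases of Aldh6a1, 18.6% lie opposite Bbof1. The log2 ratio of Aldh6a1 was 0.21 without PX-478 library 1, 0.37 without saline library 3 and 0.87 without PX-478 library 2. Hibch and Hibadh, the hydrolase and dehydrogenase before it in valine breakdown, had -0.27 (SE 0.22) and -0.18 (SE 0.18), and Acadsb, short/branched-chain acyl-CoA dehydrogenase of the isoleucine route, had -0.17 (SE 0.20). Over the 10 branched-chain genes 5 were above 0 and 5 below, with a median of 0.10.

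Propionyl-CoA from valine, isoleucine and methionine is carboxylated by propionyl-CoA carboxylase and rearranged to succinyl-CoA by methylmalonyl-CoA mutase. Pcca, the alpha subunit of the carboxylase, had 7.59, 12.6 and 10.4 CPM in the PX-478 livers, against 17.8, 14.9, 12.7 and 16.5 CPM in the saline livers. The groups touched closely, at 12.6 CPM in PX-478 and 12.7 CPM in saline, without overlapping. For Pcca the log2 ratio was -0.60 (SE 0.24, 95% interval -1.13 to -0.08, unadjusted p = 0.0271, adjusted p = 0.656 in edgeR). Pccb, the beta subunit, had 37.7, 33.3 and 49.3 CPM in the PX-478 livers, against 44.7, 31.9, 31.9 and 38.6 CPM in the saline livers, with a log2 ratio of 0.13 (SE 0.20). Mmut, the mutase, had 27.7, 27.5 and 29.2 CPM in the PX-478 livers, against 38.2, 33.7, 30.1 and 29.7 CPM in the saline livers. Although the Mmut groups did not overlap, the step between them was small and the log2 ratio was -0.22 (SE 0.18, unadjusted p = 0.237 in edgeR).

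Tryptophan enters the kynurenine pathway in liver, and 6 of its 7 members had log2 ratios below 0, with a median of -0.23 and no member under an unadjusted p of 0.05. The median was -0.01 without saline library 1, -0.07 without PX-478 library 3 and -0.11 without saline library 4. Kmo, kynurenine monooxygenase, had 141, 143 and 182 CPM in the PX-478 livers, against 191, 156, 194 and 209 CPM in the saline livers. Only saline library 2 lay below PX-478 library 3, and the log2 ratio was -0.27 (SE 0.19, adjusted p = 0.807 in edgeR). Kynu, kynureninase, had 63.5, 57.6 and 29.8 CPM in the PX-478 livers, against 80.9, 50.5, 55.3 and 67.0 CPM in the saline livers, with a log2 ratio of -0.34 (SE 0.26). Aadat, an aminotransferase that makes kynurenic acid, had 29.1, 37.0 and 34.8 CPM in the PX-478 livers, against 51.1, 33.8, 37.9 and 28.9 CPM in the saline livers, with a log2 ratio of -0.17 (SE 0.22). All 3 overlapped, and saline library 1 was the highest saline value of Kynu and Aadat.

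Tdo2, tryptophan dioxygenase, the entry step, averaged 142 ± 58.4 CPM in PX-478 (SD, n = 3) and 143 ± 24.7 CPM in saline (SD, n = 4). Haao, 3-hydroxyanthranilate dioxygenase, was the only member of the pathway above 0, at 0.14 (SE 0.20). At the branch after Haao, Acmsd sends the intermediate to oxidation and Qprt sends it to NAD; both were low, at 3.6 ± 1.2 and 8.19 ± 2.21 CPM in PX-478 (SD, n = 3). Their saline levels were 4.31 ± 1.91 CPM for Acmsd and 9.59 ± 4.75 CPM for Qprt (SD, n = 4). The ratio of Acmsd to Qprt was 0.476, 0.763 and 0.221 in the PX-478 livers and 0.298, 0.68, 0.531 and 0.432 in the saline livers, so the branch values overlapped.

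The tyrosine route held the most abundant transcript of the 49 per kilobase of exon. Hpd, 4-hydroxyphenylpyruvate dioxygenase, ranked first in both groups, with 839 CPM per kb in PX-478 and 619 CPM per kb in saline livers, and Mat1a and Fah came next in both. Hpd had 2259.9, 1064 and 2035 CPM in the PX-478 livers, against 1440.3, 1366, 1147 and 1312 CPM in the saline livers. PX-478 libraries 1 and 3 lay above all saline libraries and PX-478 library 2 below them. The log2 ratio was 0.44 (SE 0.25, adjusted p = 0.766 in edgeR), 0.24 without PX-478 library 1 and 0.71 without PX-478 library 2. Fah, fumarylacetoacetase, the last step of the route, had 771, 792 and 965 CPM in the PX-478 livers, against 889, 723, 777 and 704 CPM in the saline livers. Hgd, homogentisate dioxygenase, had 346, 245 and 268 CPM in the PX-478 livers, against 277, 290.1, 232 and 255 CPM in the saline livers. Fah and Hgd each had a log2 ratio of 0.12 (SE 0.19) with overlapping groups. Tat, tyrosine aminotransferase, a gene induced by glucocorticoids and fasting, was spread over 357 to 711 CPM in PX-478 and 382 to 1058 CPM in saline, with a log2 ratio of -0.23 (SE 0.37).

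Glycine and serine enzymes lay on both sides of 0 with a median of 0.01. Gldc, the decarboxylase of the glycine cleavage system, had 23.1, 25.9 and 13.5 CPM in the PX-478 livers, against 40.0, 23.4, 23.5 and 25.6 CPM in the saline livers. PX-478 library 3 was low and saline library 1 high, the others being alike, and the log2 ratio of -0.43 (SE 0.27) was -0.22 without saline library 1 and -0.20 without PX-478 library 3. Shmt1, the cytosolic serine hydroxymethyltransferase, had 69.4, 34.9 and 76.2 CPM in the PX-478 livers, against 36.7, 59.2, 27.4 and 53.6 CPM in the saline livers, with a log2 ratio of 0.45 (SE 0.31). Its mitochondrial counterpart Shmt2 was among the steadiest members, with 281 ± 6.91 CPM in PX-478 (SD, n = 3) and 277 ± 13.9 CPM in saline (SD, n = 4), and a 95% interval of -0.35 to 0.39. Agxt, the alanine-glyoxylate aminotransferase that removes glyoxylate, had 91.5, 111 and 110.3 CPM in the PX-478 livers, against 195, 90.5, 107 and 77.9 CPM in the saline livers. Saline library 1 again stood above the rest, and the log2 ratio was -0.17 (SE 0.28). Agxt2, a mitochondrial aminotransferase of glyoxylate and dimethylarginine, and Amt, the aminomethyltransferase of glycine cleavage, had log2 ratios of 0.00 (SE 0.27) and 0.04 (SE 0.31).

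For lysine, Aass, the bifunctional first enzyme of the saccharopine pathway, had 165, 224 and 173 CPM in the PX-478 livers, against 154, 149, 172 and 252 CPM in the saline livers. Gcdh, glutaryl-CoA dehydrogenase, further down the same pathway, had 471, 313 and 534 CPM in the PX-478 livers, against 445, 392, 275 and 428 CPM in the saline livers. The groups overlapped for both, with log2 ratios of 0.04 (SE 0.22) and 0.19 (SE 0.24).

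Gpt, alanine aminotransferase, which links alanine to pyruvate, had 385, 209 and 499 CPM in the PX-478 livers, against 303, 256, 152 and 296 CPM in the saline livers. PX-478 libraries 1 and 3 lay above the saline range and library 2 inside it. The log2 ratio was 0.53 (SE 0.30, adjusted p = 0.766 in edgeR), and 0.24 without PX-478 library 3. Got1, the cytosolic aspartate aminotransferase, had 70.7, 147 and 51.1 CPM in the PX-478 livers, against 104, 56.7, 109.7 and 49.9 CPM in the saline livers, and varied as widely within the groups as between them. Etnppl, a phospho-lyase that breaks down phosphoethanolamine, had 50.4, 25.9 and 32.2 CPM in the PX-478 livers, against 31.4, 23.9, 17.7 and 10.1 CPM in the saline livers. Saline library 1 lay above PX-478 library 2, and the log2 ratio was 0.80 (SE 0.35, unadjusted p = 0.0402, adjusted p = 0.695 in edgeR), the largest positive value of the 49. It was 0.49 without PX-478 library 1.

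**Figure D3:**
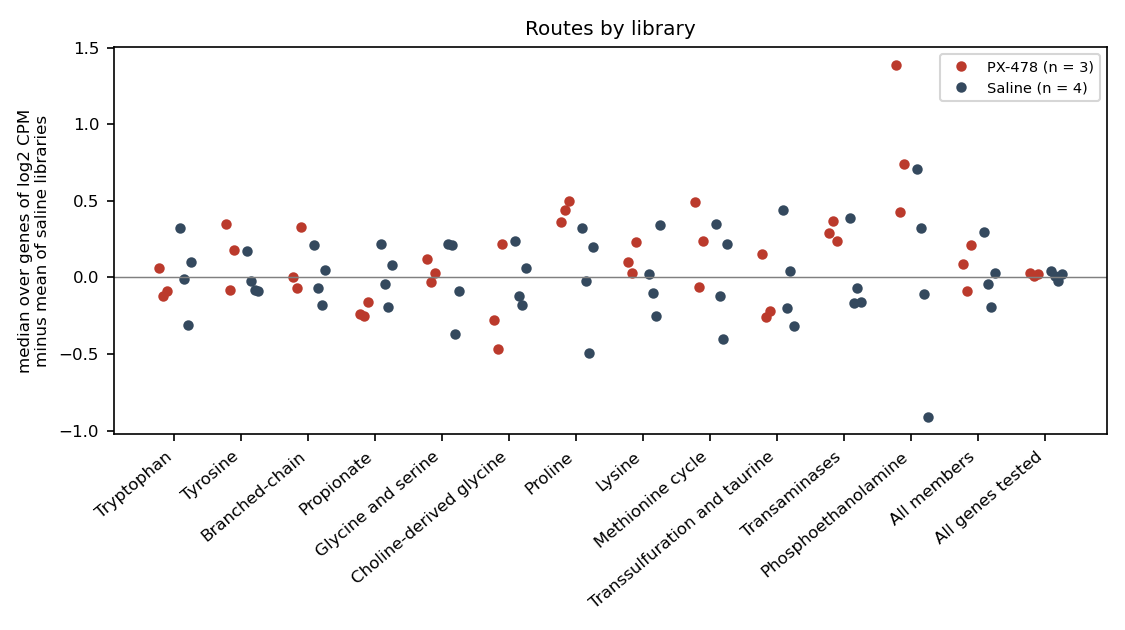
For each route, the median over its genes of log2 CPM minus the mean of the saline libraries (vertical axis), with 1 point for each of 3 PX-478 (left) and 4 saline livers (right of each pair). The groups overlap in every route except proline, where the points of PX-478, 0.36 to 0.50, lie above the saline points, -0.49 to 0.32. The gap, from 0.32 to 0.36, is small beside the spread within the groups. Of the 3 genes of that route only Prodh2 does not overlap, and 8.59% of all genes tested do not.

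Set side by side, the routes of 2 or more genes had median log2 ratios from -0.23 for tryptophan to 0.51 for proline. The methionine cycle (0.28) and the transaminases (0.35) lay nearest to proline, and propionate (-0.22) nearest to tryptophan. This order rested on single libraries. Without saline library 1 the propionate median (-0.14) was below that of tryptophan (-0.01). Without PX-478 library 3 choline-derived glycine was the lowest at -0.38, and proline (0.31) lay below the transaminases (0.34). When 1 library was left out at a time, choline-derived glycine ran from -0.38 to -0.02, the methionine cycle from 0.10 to 0.40 and proline from 0.31 to 0.56. Within libraries the proline route, taken as the median deviation of its 3 genes from the saline mean on the log2 scale, was 0.36, 0.44 and 0.50 in PX-478 and 0.32, -0.02, -0.49 and 0.20 in saline. The propionate route was -0.24, -0.25 and -0.16 in PX-478 and 0.22, -0.04, -0.19 and 0.08 in saline, where saline library 3 fell among the PX-478 values. The whole set of 49 was 0.09, -0.09 and 0.21 in PX-478 and 0.30, -0.04, -0.19 and 0.03 in saline, so the spread between livers of a group was wider than the step between the groups.

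That spread had a pattern by liver. Among the saline livers, library 1 held the highest value for 35 of the 49 genes (71.4%), against 26.8% of all genes tested, and the lowest for 0. Saline library 3 held the lowest value for 27 (55.1%), against 32.8% of all genes. Among the PX-478 livers, library 3 was the highest for 26 (53.1%; all genes 33.6%) and library 2 the lowest for 28 (57.1%; all genes 34.9%). Without saline library 3 and PX-478 library 2 together, 11 members (22.4%) had an unadjusted p under 0.05, against 8.77% of all genes in that fit, and the median over the 49 was 0.02.

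**Figure D4:**
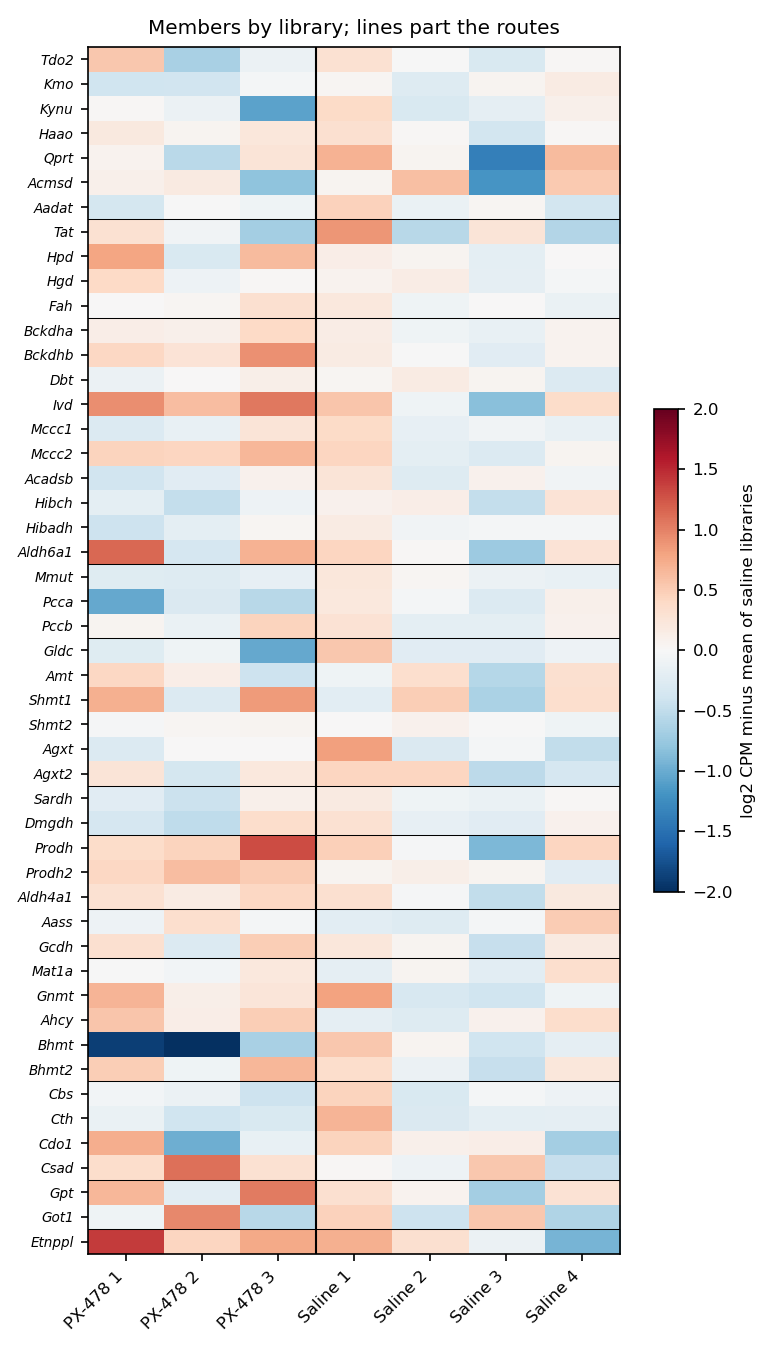
Log2 CPM minus the mean of the saline libraries (colour) for the 49 genes (rows, lines parting the routes) in 3 PX-478 (left) and 4 saline libraries (right). Saline library 1 holds the highest saline value for 35 genes and saline library 3 the lowest for 27. The Bhmt row is among the 7 whose values do not overlap between the groups.

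Further enzymes of the same routes, listed as the steps that the 49 leave out, numbered 63, of which 61 were tested. Of these 0 were called, 34 lay above 0 and 27 below, and the median was 0.04. At an unadjusted p under 0.05, 3 were higher and 3 lower (background 3.48% each way). The lower ones were Oat, Glud1 and Hsd17b10. Oat, ornithine aminotransferase, which joins ornithine to the proline and glutamate pool, lay at 217 to 304 CPM in the PX-478 livers and at 417 to 661 CPM in the saline livers. All PX-478 libraries were below all saline libraries, with a log2 ratio of -1.06 (SE 0.23, adjusted p = 0.245 in edgeR). Glud1, glutamate dehydrogenase, had a log2 ratio of -0.52 (SE 0.19) and Hsd17b10, of isoleucine breakdown, of -0.56 (SE 0.19), with groups apart for both (adjusted p = 0.602 and 0.59 in edgeR).

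The higher ones were Afmid, Kyat1 and Bcat2. Afmid, kynurenine formamidase, the step after Tdo2, had 387, 274 and 347 CPM in the PX-478 livers, against 116, 146, 76.1 and 171 CPM in the saline livers. The groups lay far apart, with a log2 ratio of 1.40 (SE 0.26, adjusted p = 0.139 in edgeR), but 44.2% of its exonic bases are shared with the gene model Gm20708 on the same strand, and how reads of the overlap were assigned is not stated in the sources used here. Kyat1, kynurenine aminotransferase 1, had a log2 ratio of 0.58 (SE 0.22), and Bcat2, the mitochondrial branched-chain aminotransferase, of 0.60 (SE 0.25), with adjusted p of 0.61 and 0.677 in edgeR. The groups overlapped for Bcat2 but not for Kyat1, and 15.9% of the exonic bases of Bcat2 lie opposite an antisense gene. In the remaining lists of enzymes, genes with the smallest p were Ftcd (0.18) and Hal (0.17) for histidine, Pcbd1 (-0.21) for phenylalanine and tyrosine, and Hoga1 (0.33) and Sds (0.25) for serine and threonine. For lysine they were Dhtkd1 (0.36) and Phykpl (0.21), and for methionine and folate Mthfd1 (0.24) and Suox (-0.30), each given as a log2 ratio with an unadjusted p above 0.2.

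Of 12 amino acid transporters 0 were called and 7 lay above 0. Slc7a2, a carrier of cationic amino acids, had the smallest p, with a log2 ratio of 0.50 (SE 0.19, adjusted p = 0.633 in edgeR), and Slc6a12, the betaine and GABA carrier, came next with 0.34 (SE 0.21). Of 15 regulators 0 were called and 8 lay above 0. Hes6, a member of the Hes family, had 52.8, 66.9 and 100 CPM in the PX-478 livers, against 47.4, 36.3, 45.2 and 51.0 CPM in the saline livers. Its log2 ratio was 0.70 (SE 0.22, adjusted p = 0.541 in edgeR). Foxo1, a forkhead factor that insulin holds back, had 34.3, 33.1 and 35.1 CPM in the PX-478 livers, against 22.4, 24.1, 27.6 and 23.8 CPM in the saline livers, with a log2 ratio of 0.48 (SE 0.18, adjusted p = 0.602 in edgeR). Klf15, a factor known to raise amino acid breakdown in fasting, had a log2 ratio of 0.05 (SE 0.21), and Nr3c1, the glucocorticoid receptor, of -0.02 (SE 0.19).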

How the data were processed

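The 49 genes and the other lists were chosen with earlier results of these data known, and they are therefore no independent support of any pattern. The deposited values are raw read counts of each gene, as whole numbers without normalization. The submitters' processing notes name featureCounts, edgeR and the build mm10 but no versions. No source used here gives the aligner or any use of strand. The table has 2 count columns for each sample, which differed by less than the sampling noise (mean chi-square per gene 0.291 to 0.765, against 49.1 to 145 between libraries of a group). Both entered as 1 sample through their rounded mean, and 7 further columns, averages for each sample, were left out.

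Groups and replicate numbers follow the sample titles. Genes were filtered with filterByExpr, scaled by TMM and compared with edgeR 4.0.16 (R 4.3.3) by its robust quasi-likelihood F test without covariates, with Benjamini-Hochberg adjustment over 13693 genes and a threshold of 0.05. A gene of 3 reads would have 0.188 to 0.26 CPM, a limit that covers counting error only. SE was obtained by dividing the size of the log2 ratio by the root of the F statistic, and 95% intervals follow from it. The test was checked on simulated counts. Positions and promoters are from RefSeq (GRCm38.p6, same coordinates as mm10, 14492 of 14889 IDs matched), exon lengths and overlaps from GENCODE M21. Other genes covered over 5% of the exonic bases of 5 members, which were Bckdha, Aldh4a1, Aldh6a1, Csad (7.26%) and Dmgdh (6.3%).

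Every member may be named. Values in each library were to be given for the 3 members of each route with the smallest p and the 12 over all. Of each other list the rule takes the 2 genes with the smallest p and those under an unadjusted p of 0.05, and it takes Cfd. Some of what the rule takes is not reported here. Alternatives were other scalings, filters and tools (DESeq2 1.42.0, limma 3.58.1 with voom), single columns, a replicate block and leaving out libraries. Chosen after seeing the data were the sum of Bhmt and Bhmt2, their ratio, the motif AGGTCA and the count of members under an unadjusted p of 0.05 in each alternative.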

Additional observations from a re-analysis of the deposited data

Results flagged for a closer look

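In groups of 4 samples a library was looked at again when its gap to the nearest other library took more than 0.829 of the range of the group. Among the saline livers 5 of the 65 genes looked at met this. For independent, normally distributed values about 1 in 20, or 3.25, would. These genes share the same 4 libraries, and some were included for their small p, so that rate is no test here. In 4 of the 5 genes saline library 1 was the high one. Cth stood at 144 CPM there, against 73.4 to 79.6 CPM in the other saline livers (gap over range 0.913), Gldc at 40.0 against 23.4 to 25.6 CPM (0.871), Hibadh at 249 against 213 to 216 CPM (0.915) and Mccc1 at 21.2 against 14.4 to 15.5 CPM (0.834). Without that library the log2 ratio of Gldc was -0.22. The fifth gene, the endothelial marker Kdr, was low in saline library 3, at 3.57 CPM against 9.11 to 9.4 CPM (0.95). The cause of these gaps was not tested.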

How the results depend on the processing

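The labels number the samples without saying that a number pairs them, and same-numbered libraries did not deviate together (r = -0.0211, -0.0742 and -0.00171), so the replicate block is an alternative only. Over all genes, the count called higher was 4 with library size only, 46 with DESeq2, 1 with the replicate block, 9 without saline library 3 and PX-478 library 2 together, and 1 at a threshold of 0.1, against 0 in the main test. The count called lower was 37 with DESeq2, 0 with limma-voom (1064 genes at an unadjusted p under 0.05), 2 with the block and 6 without both libraries, against 1. Leaving out 1 library gave 0 to 4 higher and 1 to 3 lower. Of the members, DESeq2 called 1 lower (Bhmt), and edgeR, limma-voom and every other alternative called 0. Members at an unadjusted p under 0.05 numbered 2 (4.08%) with the block, where 5.35% of all genes were under it, and 3 to 13 when 1 library was left out, with 554 to 1188 of all genes. Library size only moved the median of all genes by 0.15 and the propionate median to -0.08.

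Log2 ratios of 32 members kept their sign throughout. The other 17, none over 0.23 in size, turned in at least 1 alternative. With library size only Tdo2 was 0.097, Dbt 0.14, Mccc1 0.076 and Cdo1 0.083. With the block Qprt was 0.094, Shmt2 -0.0077, Agxt2 -0.071 and Got1 -0.12. Without both libraries Tdo2 was 0.14, Dbt 0.012, Amt -0.15, Aass -0.13, Cdo1 0.33 and Got1 -0.20. Dbt was 0.0016 in limma-voom and 0.0003 from the second column alone, and Agxt2 was -0.0092 from the first. When 1 library was left out, Tdo2 ran from -0.37 to 0.23, Aadat from -0.29 to 0.0033, Tat from -0.47 to 0.15, Hgd from -0.035 to 0.22, Dbt from -0.086 to 0.059 and Mccc1 from -0.23 to 0.093. Pccb ran from -0.052 to 0.24, Amt from -0.16 to 0.23, Shmt2 from -0.008 to 0.051, Agxt from -0.33 to 0.19, Agxt2 from -0.15 to 0.17 and Dmgdh from -0.44 to 0.031. Aass ran from -0.11 to 0.24, Mat1a from -0.05 to 0.16, Cdo1 from -0.56 to 0.31 and Got1 from -0.39 to 0.44. The cause was not tested.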
